A study of Homo sapiens with 6 samples.

Results

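The TAM receptors are the receptor tyrosine kinases TYRO3, AXL and MERTK, and their main ligands are GAS6 and protein S, the product of PROS1. These 5 genes were taken by symbol from the 52401 genes measured in MCF10A, a line of immortalised mammary epithelium of human origin, and all 5 were found. The flotillin line (3 libraries) stably carries flotillin 1 with an HA tag together with flotillin 2 fused to mCherry, from 2 retroviral vectors under puromycin plus hygromycin. It is compared with a line stably expressing mCherry, made with 1 retroviral vector and selected with puromycin (3 libraries). Both were grown in the same medium with horse serum, insulin, EGF, hydrocortisone and cholera toxin. Each group is a single line, so the level of flotillins, the number of vectors and the hygromycin selection cannot be told apart. The labels do not say whether the 3 samples of a line were separate cultures, and the spread behind each p-value may therefore be technical.

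GAS6 binds all TAM receptors, whereas protein S is known to act on TYRO3 and MERTK. Both ligands carry gamma-carboxylated glutamates, made in a vitamin K-dependent step, and through them bind phosphatidylserine on dying cells or membranes. The ligand thereby bridges such a membrane to the receptor, whose kinase then signals through adaptors, among them GRB2 and PI3-kinase. AXL is a receptor of epithelial and mesenchymal tumour cells, MERTK is best known from macrophages and the retinal pigment epithelium, and TYRO3 from the nervous system. Serum carries circulating protein S, which RNA counts do not see. Flotillins are membrane scaffold proteins of endocytic microdomains. The published study of these lines is recalled, as background that was not checked here, to report more AXL protein in the flotillin line; the comparison below is of transcripts only.

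The receptors share a short signature in the kinase domain that marks the family. Its coding stretch is printed for the 3 receptors to show how close, and how separable, their transcripts are. It was read from the GENCODE v29 transcripts, 5′ to 3′, 21 bases that encode 7 residues, and capitals mark the 7 positions at which the 3 genes are not all alike.
AXL: aaGtggAtTgccAtTgaGagT
TYRO3: aaGtggCtGgccCtGgaGagC
MERTK: aaAtggAtCgccAtAgaAagT
AXL and TYRO3 differed at 5 of the 21 bases, AXL and MERTK at 4, and TYRO3 and MERTK at 7.

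The members lie on 5 chromosomes, by the locus column of the authors' Tuxedo table on GRCh37, counted from 1. The receptor genes are AXL (ENSG00000167601) at chr19:41725108-41767670, TYRO3 (ENSG00000092445) at chr15:41851232-41871536 and MERTK (ENSG00000153208) at chr2:112656056-112787138. The ligand genes are GAS6 (ENSG00000183087) at chr13:114518603-114567046 and PROS1 (ENSG00000184500) at chr3:93591881-93692910. Counts are over the whole gene and do not separate exons or isoforms.

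The deposited group means could be split into whole reads of 6 libraries (99.7% of the means above 0 in each line), which are numbered 1 to 3 within a line by falling size factor. The numbers do not link the lines and cannot be tied to the replicate numbers of the labels. The solved genes held 18595015 to 19740387 reads per library. Library 3 stood apart in both lines. The median gene differed from the other libraries of its line by 0.28 in flotillin library 3 and 0.44 in mCherry library 3 on the log2 scale, against 0.17 to 0.20 in the remaining flotillin libraries and 0.28 to 0.30 in the remaining mCherry libraries. The targeted genes fitted the labels: in the authors' deposited table FLOT1 had a mean of 16771 normalized counts in the flotillin line and 1474 in the mCherry line, and FLOT2 41052 in the flotillin line and 3727 in the mCherry line. Of 8 mammary epithelial markers, 5 fell in the flotillin line by the authors' deposited table, CDH1 among them with means of 78.8 in the flotillin line against 17575 in the mCherry line. Over all 19733 genes tested there, 12% were lower in the flotillin line. The libraries of KRT14, another of these falls, overlapped between the lines, and it did not pass in the limma fit described below (adjusted p 0.135). KRT5, KRT8 and KRT18 did not pass, KRT5 with means of 67351 in the flotillin line and 48381 in the mCherry line in the authors' deposited table. KRT8 was called higher in the authors' Tuxedo table (log2 fold change 0.79, q 0.0338).

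AXL, the TAM receptor with the highest FPKM in both lines, did not pass the test for a difference in transcript level. Its normalized counts, read counts divided by the size factor of each library, were 4117, 3365 and 5512 in flotillin libraries 1 to 3. In mCherry libraries 1 to 3 they were 4713, 3755 and 2538. The groups overlapped, and the library that stood apart was the highest of the flotillin line and the lowest of the mCherry line. By the authors' deposited table the log2 fold change was 0.23 (adjusted p 0.638). A second fit to the 6 libraries with limma gave 0.26 ± 0.28 (SE), with a 95% interval of -0.40 to 0.91 and an adjusted p of 0.521. The direction rested on library 3: without it in both lines limma gave -0.18. The authors' Tuxedo table listed 35.9 FPKM in the flotillin line and 32.6 FPKM in the mCherry line, with a q of 0.804. FPKM scales fragments to transcript length and sequencing depth. The interval does not exclude a transcript difference of either sign, and no protein was measured in the files used here.

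TYRO3, which had a lower FPKM than AXL in both lines, likewise did not pass. The flotillin libraries had 412, 443 and 715 normalized counts, and the mCherry libraries 520, 434 and 633. The ranges overlapped almost wholly, with library 3 the highest in each line. The authors' deposited table gave -0.02 on the log2 scale (adjusted p 0.976), and limma a 95% interval of -0.67 to 0.58. A pseudogene, TYRO3P, matches the TYRO3 transcript at 94.6% of 2635 aligned bases and was not analysed here, so reads shared between them are uncertain.

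MERTK had few reads in both lines and was called lower in the flotillin line by the authors' deposited table. The authors' Tuxedo table left MERTK untested. It had 2, 4 and 5 reads in the flotillin libraries, against 20, 18 and 9 reads in the mCherry libraries. Normalized counts were 2.00, 4.05 and 5.14 in the flotillin line and 19, 17.2 and 8.89 in the mCherry line. The groups did not overlap, and the difference rests on 11 reads against 47. The means differed 4.03-fold. The authors' deposited table lists a log2 fold change of -1.57 (adjusted p 0.0413), a smaller difference than that of the means. By the same source 23.6% of 19733 tested genes, 4661 in all, had an adjusted p under 0.05, with 11.6% higher and 12% lower in the flotillin line. Groups did not overlap for 45.2% of 15905 genes with a mean of at least 10, and 21.1% had all flotillin libraries below all mCherry libraries. MERTK, below that mean, is not among those genes. MERTK was therefore 1 of 3 receptors called, and PROS1, described next, 1 of the pair of ligands. MERTK was below the mean of 10 required for the limma fit, and the other 4 members were above it. A limma fit without that filter gave -1.76 ± 0.52 (SE), with an adjusted p of 0.0434. That call was lost when flotillin library 1, 2 or 3 or mCherry library 1 or 2 was left out (adjusted p up to 0.163), and held only without mCherry library 3 (0.0174).

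Since MERTK is a macrophage gene, markers of that cell type were read beside it. Of 8 macrophage and monocyte markers, CD163, AIF1 and MRC1 were at 0 in both lines, and PTPRC, the pan-leukocyte marker, had authors' means of 0.343 in the flotillin line and 2.56 in the mCherry line. CD14, CSF1R and ITGAM fell by the authors' deposited table, CD14 with means of 118 in the flotillin line against 743 in the mCherry line, CSF1R with means of 88.9 in the flotillin line against 344 in the mCherry line and ITGAM with means of 1.35 in the flotillin line against 27.1 in the mCherry line. The ITGAM mean of the mCherry line rested mainly on library 2, with 0, 4.05 and 0 normalized counts in flotillin libraries and 13.3, 65.0 and 2.96 in mCherry libraries, and its groups overlapped (limma adjusted p 0.0729). CD68, the remaining marker, did not pass and had the higher mean in the flotillin line, 1309 against 753 in the mCherry line (adjusted p 0.189, the authors' deposited table). The summed level of the markers with library values, CD68 included, was 1219 to 1826 in flotillin libraries and 1055 to 3120 in mCherry libraries. All libraries came from the MCF10A line, so these markers are given as transcripts of that line and not as a share of macrophages. Their part in the MERTK difference was not tested.

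PROS1, which encodes protein S, was the member that rose. The flotillin libraries had 3752, 4459 and 2713 normalized counts, and the mCherry libraries 1886, 2219 and 1285. The lowest flotillin library lay above the highest mCherry library, and library 3 was the lowest in each line. The means of 3642 ± 878 in the flotillin line and 1797 ± 473 in the mCherry line (SD, n = 3 each) differed 2.03-fold. The authors' deposited table of means lists a log2 fold change of 0.97 (adjusted p 0.00954), and the authors' Tuxedo table lists 0.95 (q 0.00735). By Tuxedo, 16.9% of 17022 tested genes passed and 6.93% were higher. The limma fit gave 1.03 ± 0.27 (SE), with a 95% interval of 0.40 to 1.65 and an adjusted p of 0.0320, where 23.4% of 15905 genes passed and 12.2% were higher. Of those 15905 genes, 24.2% had all flotillin libraries above all mCherry libraries. Leaving out 1 library kept the log2 difference between 0.80 and 1.22. The limma call was lost without flotillin library 1 or 2 (adjusted p 0.105 and 0.119) or mCherry library 1 or 2 (0.0757 and 0.0527), and held without library 3 of either line (0.0299 and 0.0319).

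Reads of PROS1 could be confused with those of PROS2P, a pseudogene that matches the PROS1 transcript at 96.9% of 1951 bases. PROS2P, listed as PROSP, had 2 reads in 1 flotillin library and none in the other 5 libraries.

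GAS6, the ligand common to all TAM receptors, did not pass. Flotillin libraries had 1797, 2122 and 3263 normalized counts, and mCherry libraries 2738, 1606 and 2044. The groups overlapped, with flotillin library 3 the highest of all 6. For GAS6 the authors' deposited table lists 0.16 on the log2 scale (adjusted p 0.757), and limma a 95% interval of -0.50 to 0.81. Without flotillin library 3 the limma difference was -0.090, without mCherry library 2 it was -0.03, and without library 3 of both lines it was -0.10. Its antisense partner GAS6-AS1, listed under the symbol RP11-199F6.3, had 17, 7 and 15 reads in flotillin libraries, against 3, 4 and 4 in mCherry libraries. Those groups did not overlap, but the gene missed the threshold of the authors' deposited table (adjusted p 0.0630). Library preparation was stranded per the labels, but no source states whether the counting used strand, so reads of GAS6 and its antisense partner may not be fully separated.

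**Figure D1:**
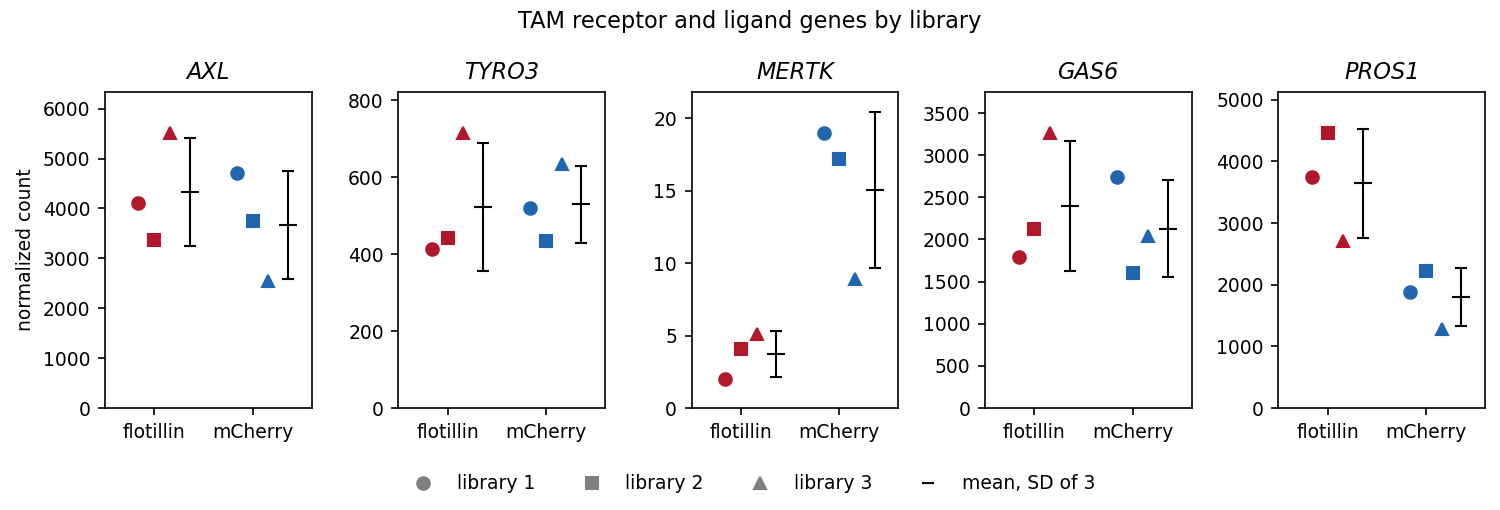
Normalized count of each TAM receptor and ligand gene in each library (points, linear axes from 0), flotillin line left of mCherry line, with the mean and SD of 3 libraries in black. PROS1 libraries of the flotillin line lie above, and those of MERTK below, all mCherry libraries, while AXL, TYRO3 and GAS6 overlap.

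The balance between members was then compared within libraries, where the size factor cancels. PROS1 reads per GAS6 read were 2.09, 2.1 and 0.831 in flotillin libraries and 0.689, 1.38 and 0.629 in mCherry libraries. The highest mCherry ratio exceeded the ratio in flotillin library 3, and the two-sided exact permutation test over libraries gave p = 0.2. PROS1 reads per AXL read were 0.911, 1.33 and 0.492 in flotillin libraries and 0.40, 0.591 and 0.506 in mCherry libraries, with an exact p of 0.3. GAS6 per AXL and AXL per TYRO3 gave exact p values of 1.0 and 0.8. With 3 libraries against 3 the smallest two-sided p is 0.1, so no such ratio could pass, and after adjustment over the 4 ratios the values were 0.6 to 1.0. In flotillin library 3 PROS1 was the lowest, and AXL, TYRO3 and GAS6 the highest, of their line.

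Levels of different genes can be set side by side only per length. In FPKM the order in the flotillin line was GAS6 (60.2), PROS1 (39.5), AXL (35.9), TYRO3 (5.28) and MERTK (0.0827). In the mCherry line it was GAS6 (57.7), AXL (32.6), PROS1 (20.4), TYRO3 (5.72) and MERTK (0.289). PROS1 and AXL thus stood in opposite order in the FPKM of the lines. PROS1 made up 39.6% of the FPKM of the ligand pair in the flotillin line and 26.1% in the mCherry line. Among the receptors AXL made up 87.0% in the flotillin line and 84.4% in the mCherry line. TYRO3 made up 12.8% in the flotillin line and 14.8% in the mCherry line, and MERTK 0.200% in the flotillin line and 0.75% in the mCherry line. These FPKM are the authors' group values with no spread of their own.

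The order of AXL, GAS6 and PROS1 depended on the length used. Per kilobase of the longest coding transcript, PROS1 had 1047, 1245 and 757 normalized counts in flotillin libraries and 526, 619 and 359 in mCherry libraries. AXL had 869, 710 and 1164 in flotillin libraries and 995, 793 and 536 in mCherry libraries. GAS6 had 722, 852 and 1310 in flotillin libraries and 1100, 645 and 821 in mCherry libraries. By means PROS1 was then the highest of the 3 in the flotillin line and the lowest of the 3 in the mCherry line. Per kilobase of all exons merged, AXL was the highest in both lines. The ranges of these 3 genes overlapped within the flotillin line on the transcript scale, so neighbours there did not differ beyond their spread. In the mCherry line PROS1 overlapped AXL and lay below GAS6. TYRO3 was below these 3 genes, and MERTK below TYRO3, on every length scale in both lines.

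**Figure D2:**
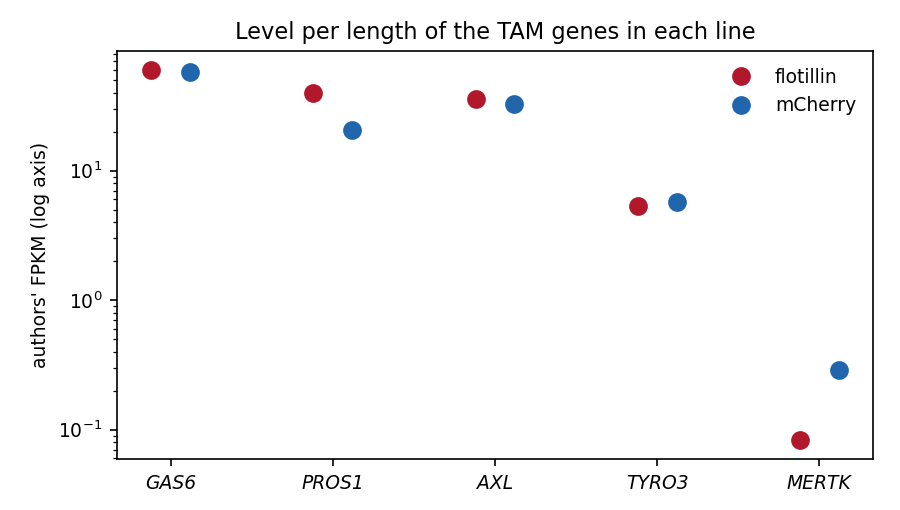
The authors' FPKM of the 5 genes on a log axis, with a flotillin point left of an mCherry point for each gene. PROS1 lies above AXL in the flotillin line (39.5 against 35.9) and below it in the mCherry line (20.4 against 32.6), and TYRO3 and MERTK lie far below both.

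Receptor tyrosine kinase genes were ranked by FPKM within a chosen list of 43, which does not hold the whole family. AXL was 6th of these in the flotillin line, between DDR1 (45.4) and EPHB4 (31.8). In the mCherry line it was 11th, between ERBB2 (38.0) and EPHA1 (31.5). DDR1 is a collagen receptor, EPHB4 and EPHA1 are ephrin receptors, and ERBB2 is an EGF receptor relative. TYRO3 was 13th in the flotillin line, between FGFR1 (5.60) and KDR (3.76), and 18th in the mCherry line, between FGFR1 (7.58) and INSR (4.79). MERTK was 32nd in the flotillin line, directly below TIE1 (0.130), and 30th in the mCherry line, between TEK (0.481) and TIE1 (0.195). AXL therefore ranked higher in the flotillin line although its own FPKM did not pass (q 0.804, the authors' Tuxedo table). Of the other 40 kinase genes, 32 were tested, and 3 rose (PDGFRB, EPHA4 and ROR2) and 15 fell in the authors' deposited table. Their median log2 fold change was -0.66, beside -0.04 over all genes tested and 0.11 over those with a mean of at least 100.

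**Figure D3:**
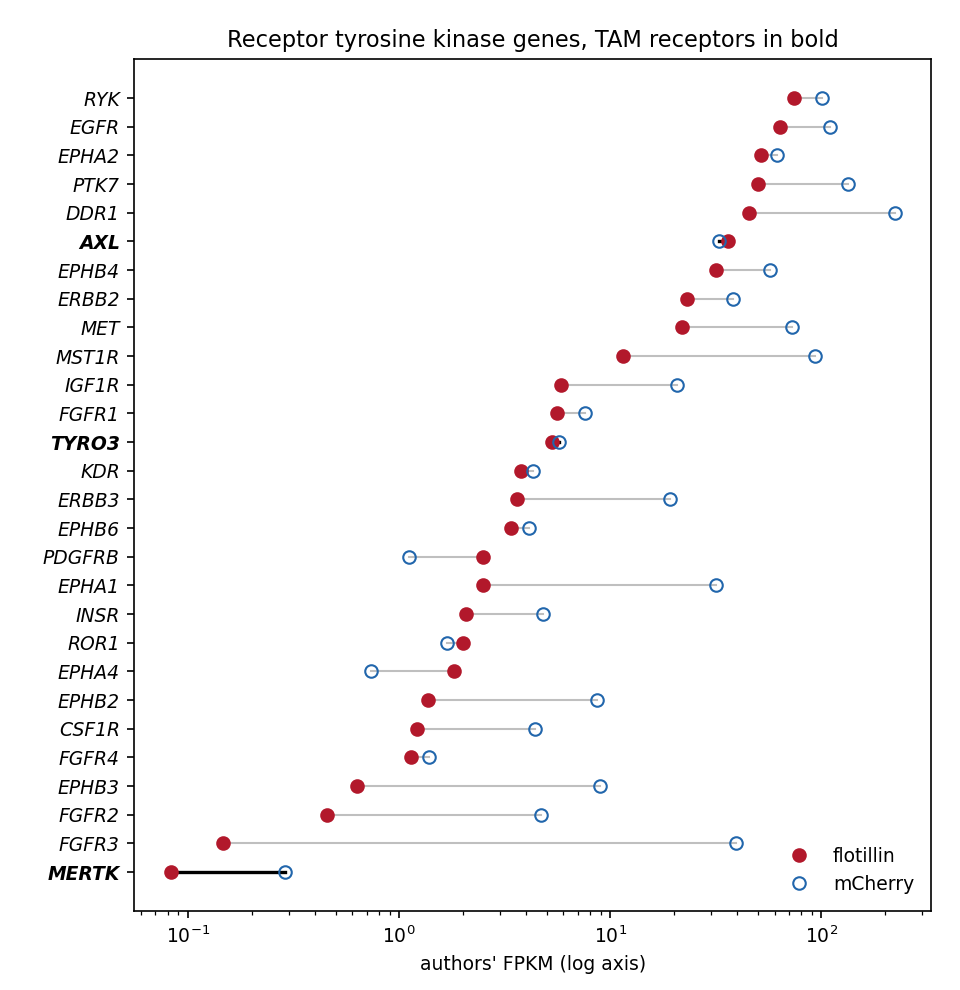
The authors' FPKM of the listed receptor tyrosine kinase genes (log axis), sorted by the flotillin line, for those that reach 1 FPKM in either line and MERTK. Filled points are the flotillin line and open points the mCherry line, and the TAM receptors are in bold. AXL and TYRO3 have close points, and so have some other kinases, KDR among them. Many other kinases, and MERTK, are lower in the flotillin line.

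The genes that make, shed, degrade and read out the TAM system were described from lists of known function. Over 94 such genes without the members, 86 were tested, and 14 rose and 15 fell in the authors' deposited table. Their median log2 fold change was 0.11, beside -0.04 over all genes tested and 0.11 over those with a mean of at least 100. The counts are to be read beside 11.6% higher and 12% lower over all genes. None of 2 tested other reported ligands passed in that table or in limma, and none had an unadjusted p under 0.05 (0 in each). LGALS3, the galectin reported as a MERTK ligand, had means of 2711 in the flotillin line and 1877 in the mCherry line (adjusted p 0.224, the authors' deposited table). It passed in limma when library 3 of both lines was left out, at 0.67. Calls of that fit, here and below, are to be read beside its 3761 rises and 3271 falls among 15905 genes. With all 6 libraries limma called 1944 rises and 1773 falls. None of 4 genes for vitamin K-dependent ligand maturation passed in either fit, again with 0 at an unadjusted p under 0.05, and their median was -0.01. FURIN, a protease that trims propeptides, had the highest mean count of them, with means in the authors' deposited table of 4103 in the flotillin line and 3898 in the mCherry line.

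The genes of receptor shedding came next. AXL and MERTK are cut at the cell surface by ADAM10 and ADAM17, and gamma-secretase can then release the intracellular part. Of 9 tested genes 5 fell, with a median log2 fold change of -0.77. None rose in the authors' deposited table or in limma, 0 also at an unadjusted p under 0.05. ADAM17 had 1367, 1442 and 1502 normalized counts in flotillin libraries and 3409, 4134 and 3271 in mCherry libraries. The groups lay apart, and the authors' deposited table lists -1.30 on the log2 scale (adjusted p 5.02e-08). ADAM10 had 3186, 3207 and 4365 in flotillin libraries and 6490, 8459 and 6723 in mCherry libraries, again without overlap (-0.98, adjusted p 0.00101, the authors' deposited table). PSEN2, a catalytic subunit of gamma-secretase, also fell (-0.77, adjusted p 0.00445, the authors' deposited table). TIMP3, which inhibits these ADAM proteases rather than cutting the receptors, fell as well, with 1834, 2651 and 1537 normalized counts in flotillin libraries and 9521, 6415 and 6960 in mCherry libraries (-1.85, adjusted p 2.23e-08, the authors' deposited table). NCSTN, a gamma-secretase subunit with the highest mean count of the list, had means of 9655 in the flotillin line and 12105 in the mCherry line and did not pass (adjusted p 0.321, the authors' deposited table). The authors' Tuxedo table called 3 of these falls, ADAM17 and TIMP3 among them, and limma all 5. Shed receptor was not measured here.

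Among 7 genes of receptor ubiquitination and sorting, which hold ligases, deubiquitinases and the sorting protein HGS, the ligase genes CBLB rose and CBLC fell. CBLB had 1283, 980 and 1062 normalized counts in flotillin libraries and 498, 461 and 334 in mCherry libraries, a log2 fold change of 1.32 in the authors' deposited table (adjusted p 1.17e-05). CBLC had 13, 19.3 and 21.6 in flotillin libraries and 293, 164 and 265 in mCherry libraries (-3.49, adjusted p 7.32e-19, the authors' deposited table). These CBL family members therefore moved in opposite directions, each without overlap. Without library 3 of both lines limma also called a rise of USP8, a deubiquitinase (0.55). NEDD4, the ligase with the highest mean count, had means of 4161 in the flotillin line and 2919 in the mCherry line and did not pass (adjusted p 0.177, the authors' deposited table).

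Of 26 tested adaptors and signalling partners, 7 rose and 2 fell, with a median log2 fold change of 0.51. DOCK1, an exchange factor for RAC in engulfment, had means of 2827 in the flotillin line and 1519 in the mCherry line (0.88, adjusted p 0.000529, the authors' deposited table). SHC1, the adaptor with the highest mean count, had means of 45228 in the flotillin line and 24522 in the mCherry line (0.85, adjusted p 0.0199, the authors' deposited table). The falls were VAV3, an exchange factor with means of 262 in the flotillin line and 592 in the mCherry line (-1.09, adjusted p 0.0211), and PLCG1, a phospholipase with means of 2436 in the flotillin line and 5328 in the mCherry line (-1.06, adjusted p 0.0170, the authors' deposited table). Neither fall passed in limma, which called 6 rises and 0 falls, with 3 falls at an unadjusted p under 0.05. Without library 3 of both lines limma called both falls, and that of AKT2. The authors' Tuxedo table called 1 rise, that of ELMO1.

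AXL is known to pair with other receptors, and of 8 tested partners 4 fell and 1 rose. MET, the receptor of hepatocyte growth factor, had 3060, 3243 and 4537 normalized counts in flotillin libraries and 11493, 13846 and 9972 in mCherry libraries (-1.65 in the authors' deposited table). ERBB3 had means of 335 in the flotillin line and 2134 in the mCherry line (-2.48, the authors' deposited table). EGFR, the partner with the highest mean count, had means of 16584 in the flotillin line and 27098 in the mCherry line (-0.68, adjusted p 0.0462, the authors' deposited table). PDGFRB, also a fibroblast marker, rose at a low level, with means of 74.4 in the flotillin line and 24.4 in the mCherry line (1.47, adjusted p 0.00390, the authors' deposited table). IL15RA was the remaining fall (-0.77, adjusted p 0.0302, the authors' deposited table). The limma fit called the falls of ERBB3 and MET.

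**Figure D4:**
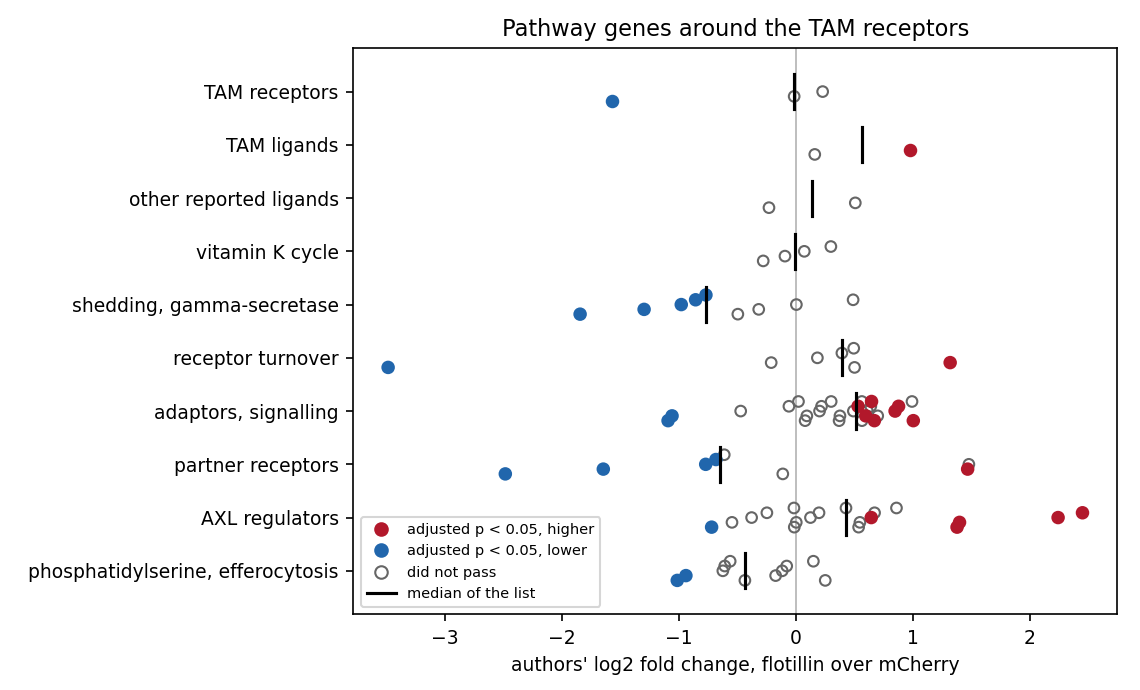
Log2 fold change as the authors deposited it, flotillin over mCherry (x axis), for each tested gene of each list (rows), with filled red points for rises, filled blue points for falls, open points for genes that did not pass, and a black bar at the median. Shedding genes have a median of -0.77, adaptors of 0.51 and AXL regulators of 0.43. All tested genes have a median of -0.04, and those with a mean of at least 100 a median of 0.11.

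Of 19 tested factors reported to act on the AXL gene 5 rose, 1 fell and 13 did not pass in the authors' deposited table, with a median log2 fold change of 0.43. ZEB1 had 874, 720 and 1132 normalized counts in flotillin libraries and 157, 178 and 132 in mCherry libraries (2.45 in the authors' deposited table). ZEB2 had means of 749 in the flotillin line and 151 in the mCherry line (2.24, the authors' deposited table). These E-box binding repressors of epithelial genes were the largest rises of the list. HIF1A, the hypoxia factor and the regulator with the highest mean count, had means of 14670 in the flotillin line and 5503 in the mCherry line (1.38, adjusted p 2.09e-07, the authors' deposited table). SP1, a GC-box binding factor, had 4458, 3358 and 3613 normalized counts in flotillin libraries and 6635, 7099 and 5369 in mCherry libraries (-0.72, adjusted p 0.0156, the authors' deposited table). WWTR1, a coactivator of TEAD factors, and TEAD1 were the other rises. Without library 3 of both lines limma called 7 rises and a further fall, that of JUN (-0.94). Over all 15905 genes that fit called 3761 rises and 3271 falls, against 1944 and 1773 with all 6 libraries.

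The promoter windows of AXL and PROS1 are shown because AXL is the gene of the regulator list and PROS1 is the member that rose. They are RefSeq windows on GRCh38.p14, 250 bases before to 50 after a start, in the direction of transcription. The 4 motifs below were searched on both strands, and capitals mark the matches found. They were the GC box (GGGCGG or CCGCCC), the E-box bound by ZEB and Snail factors (CAGGTG or CACCTG), a TEAD motif (GGAATG or CATTCC) and an AP-1 motif (TGANTCA). No motif overlapped another. The first AXL window is chr19:41218973-41219272 on the + strand, the second chr19:41226505-41226804 on the + strand, and the PROS1 window chr3:93973847-93974146 on the - strand.
AXL, first start: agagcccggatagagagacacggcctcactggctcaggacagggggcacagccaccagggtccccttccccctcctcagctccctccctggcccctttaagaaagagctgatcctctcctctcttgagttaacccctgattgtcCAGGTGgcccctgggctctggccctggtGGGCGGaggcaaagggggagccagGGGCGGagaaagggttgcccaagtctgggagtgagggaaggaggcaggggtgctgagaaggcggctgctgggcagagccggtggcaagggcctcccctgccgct
AXL, second start: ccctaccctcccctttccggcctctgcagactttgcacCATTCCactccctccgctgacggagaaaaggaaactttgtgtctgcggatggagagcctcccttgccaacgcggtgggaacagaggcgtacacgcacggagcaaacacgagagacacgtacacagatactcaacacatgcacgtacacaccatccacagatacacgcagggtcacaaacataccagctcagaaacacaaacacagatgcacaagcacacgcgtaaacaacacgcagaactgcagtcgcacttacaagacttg
PROS1: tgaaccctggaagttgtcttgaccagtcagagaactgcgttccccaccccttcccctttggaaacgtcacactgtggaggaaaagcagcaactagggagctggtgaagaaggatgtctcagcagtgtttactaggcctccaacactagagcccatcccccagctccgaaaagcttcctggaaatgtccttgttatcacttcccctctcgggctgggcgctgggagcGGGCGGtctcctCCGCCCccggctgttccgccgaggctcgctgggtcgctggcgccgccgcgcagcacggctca
The first AXL window held 2 GC boxes and 1 E-box, the second AXL window 1 TEAD motif, and the PROS1 window 2 GC boxes. The MERTK window held 5 GC boxes, the GAS6 window 3 GC boxes and 1 E-box, and the first TYRO3 window 3 GC boxes and 1 AP-1 motif. Of 35116 promoter windows of the same length, 45.0% held a GC box, 20.6% the E-box, 14% the TEAD motif and 7.71% the AP-1 motif. A match is a run of letters and not a measured site.

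Genes for phosphatidylserine exposure and engulfment were the remaining list. Of 17 listed 11 were tested and 2 fell, against 5 falls in limma without library 3 of both lines, where CALR, ITGAV and ANO6 were added. Over all 15905 genes that fit called 3271 falls, against 1773 with all 6 libraries. None rose in the authors' deposited table or in limma, 0 also at an unadjusted p under 0.05. ATP11A, a flippase gene, was among the falls, with 1372, 1115 and 1628 normalized counts in flotillin libraries and 2718, 2733 and 3025 in mCherry libraries (-1.01, adjusted p 0.000289 in the authors' deposited table). Flippases return phosphatidylserine to the inner leaflet. CALR, with the highest mean count of the list, had means of 15551 in the flotillin line and 24313 in the mCherry line and did not pass (adjusted p 0.0560, the authors' deposited table).

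Finally, the genes whose normalized counts followed each member most closely over the 6 libraries were read out of 11370 candidates with a mean of at least 100, as a description by Pearson's r. PROS1 was followed by PLSCR4, a phospholipid scramblase family member (0.998), PRKCE, protein kinase C epsilon (0.995), and TMTC1 (0.993). PLSCR4 had 765, 1059 and 516 normalized counts in flotillin libraries and 279, 357 and 169 in mCherry libraries, the same order of libraries as PROS1. AXL was followed by OSBPL8, an oxysterol-binding family member (0.984), CERCAM (0.955) and TCP11L1 (0.943). TYRO3 was followed by GMCL1 (0.979), DHX38, a splicing helicase (0.976), and FOXJ2, a forkhead factor (0.974). GAS6 was followed by CHST14, a dermatan sulfotransferase (0.928), AC009505.2 (0.925) and PPP6R1, a phosphatase subunit (0.921). Among the members, r was 0.74 for TYRO3 and GAS6, 0.60 for AXL and GAS6, 0.33 for AXL and PROS1 and -0.53 for TYRO3 and PROS1. The choice of genes depended on the measure. By Spearman's rho a gene counted as kept if it had the highest rho of all candidates, ties included. On that count 0 of the 3 genes were kept for GAS6, 1 for TYRO3, 2 for AXL and 3 for PROS1. Over 6 libraries other candidates can tie at the highest rho, and such ties are not reported here. With candidates at a mean of at least 1000, 1 of 3 was kept for each of the 4 members. The points share libraries, 2 lines and the 2 libraries that stood apart, and MERTK was too low to be included.

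**Figure D5:**
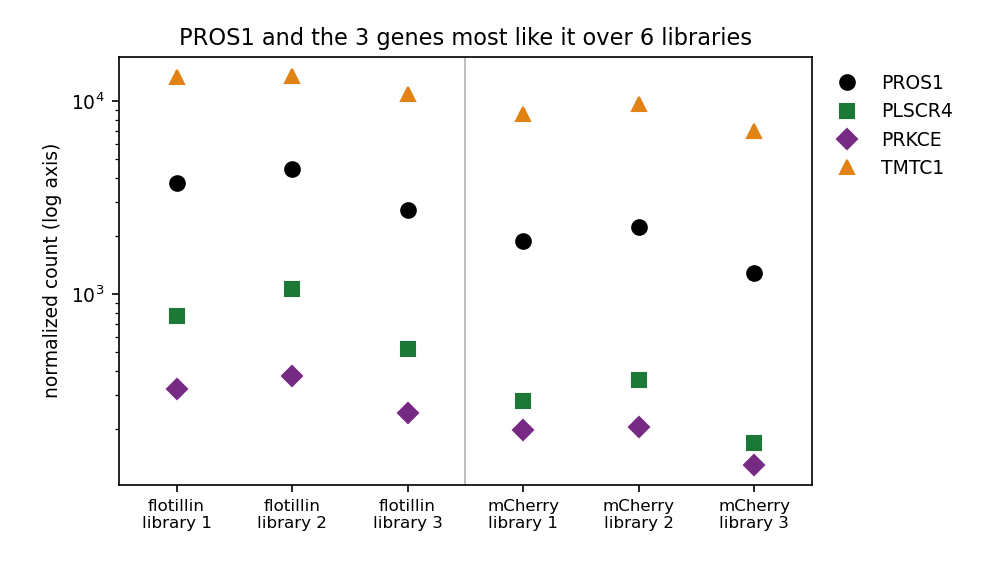
Normalized counts (log axis) of PROS1 and the 3 genes with the highest Pearson's r to it, by library, flotillin libraries left of the line and mCherry libraries right of it. In each line library 2 is the highest and library 3 the lowest for all 4 genes.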

How the data were processed

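RNA of 6 MCF10A libraries was measured by stranded mRNA sequencing, and samples were grouped by the labels' titles. The authors deposited group means of normalized counts (a signal), log2 fold changes, p-values and adjusted p-values in 1 table, and FPKM, log2 fold changes, a test score and q-values from a Tuxedo pipeline in another, per the file headers. Of these, 52313 identifiers were in both. The submitters' processing notes name build GRCh37 and the tools bcl2fastq, DESeq2 1.18.1, HTSeq 0.9.1 and HISAT2 2.1.0. Annotation release and Tuxedo versions were not given in the sources used here. As main result serves the authors' deposited table of means, called at an adjusted p under 0.05.

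The means carry 15 significant digits, and a mean of 3 libraries is a sum of whole reads, each over 3 times its size factor. The reads were therefore recovered by a search with numba 0.67.0. The search gave exactly 1 solution for 99.7% of the means in each line. The 106 genes without one hold 18.4% of the flotillin and 19.3% of the mCherry normalized counts and have group means only. Altered means had a solution in 0.0% and 0.05% of 2000 cases, and 100% of 3000 simulated means were returned exactly. The second fit was limma 3.58.1 (trend, robust, Benjamini-Hochberg) on log2(normalized count + 1) for genes with a mean of at least 10. Such fold changes understate those of low genes. For MERTK the authors' deposited log2 fold change was smaller still, -1.57 against -1.76 in limma without a filter. On data simulated for 3 against 3 libraries and 15905 genes, it called 65% of 2-fold and 100% of 4-fold changes, with 5.71% of calls false. The simulation gave all genes 1 dispersion (0.0429), raised few genes, lowered none and set no library apart. These shares may therefore not hold in the measured libraries. Exact permutation tests used scipy 1.17.1.

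Genes were matched by Ensembl ID, since some symbols in the files differ (KRT18 and GAS6-AS1 among them). The members and lists were chosen with earlier results of these data known. Text names all 5 members. In each list it names the passing genes where these are 4 or fewer, otherwise the 2 largest rises and 2 largest falls, and also the gene with the highest mean. It also names near copies, the 3 genes most like each member, and the kinases next to each receptor. Some genes that this rule takes are not reported here. Other genes (WWTR1, TEAD1, USP8, AKT2, ELMO1, JUN, ITGAV, ANO6, EPHA4 and ROR2) were named after their values were seen. ADAM10, PSEN2, IL15RA, SPHK2 and AC011510.2 also lie outside the rule. Motif windows are on GRCh38.p14 and were not placed on the files' build. Alternatives were other scalings, pseudocounts, filters and thresholds, the Tuxedo table, a term for library 3, and leaving out libraries. The MERTK fit without a filter and with libraries left out was added after the data were seen.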

Additional observations from a re-analysis of the deposited data

How the results depend on the processing

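The log2 differences of AXL, TYRO3 and GAS6 did not pass under any alternative tried, and their direction was not fixed. Without library 3 of both lines AXL was -0.18 and GAS6 -0.10. Leaving out 1 library gave 0.01 to 0.46 for AXL, -0.29 to 0.11 for TYRO3 (0.11 without flotillin library 1, 0.05 without flotillin library 2 and 0.09 without mCherry library 3) and -0.090 to 0.36 for GAS6 (-0.090 without flotillin library 3 and -0.03 without mCherry library 2). PROS1 stayed higher throughout, at 0.80 to 1.22 with 1 library left out, and missed the threshold when scaled by the upper quartile (0.98, adjusted p 0.0541). MERTK, at -1.57, missed a threshold of 0.01. Without a filter it was -2.07 to -1.46 with 1 library left out, and -2.29 without library 3 of both lines (adjusted p 0.0695). Fits with 1 library left out use 5 samples.

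The 2298 rises of the authors' deposited table were 1180 in the authors' Tuxedo table and 1944 in limma with all 6 libraries. Against those 1944, limma called 3761 without library 3 of both lines, 3906 with a term for library 3, and 354 to 3492 with 1 library left out (354 without flotillin library 1, 3492 without mCherry library 3). The 2363 falls of the deposited table were 1773 in limma with all 6 libraries. Against those 1773, limma called 1304 at a mean of at least 100, 3271 without library 3 of both lines, 3414 with a term for library 3, and 645 to 2908 with 1 library left out. The term for library 3 assumes a shared shift of flotillin library 3 and mCherry library 3, although library numbers do not link the lines. Rises over the pathway lists became 6 in the Tuxedo table. The log2 ratio of PROS1 over AXL changed with the length used. In the flotillin line it was 0.14 by FPKM and -0.33 per kilobase of merged exons. In the mCherry line it was -0.67 by FPKM and -1.11 per kilobase of merged exons. The cause of the shifts in the called counts was not tested. With 11 reads in the flotillin line and 47 in the mCherry line, depth limits MERTK most. No paired analysis was possible because the deposited columns hold group means and the recovered libraries carry no replicate numbers.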

Other observations

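AC011510.2, a gene listed with the same locus as AXL, had 119 FPKM in the flotillin line and 119 FPKM in the mCherry line in the authors' Tuxedo table, above the FPKM of AXL itself, but 4 reads in each line among the recovered counts. SPHK2, a sphingosine kinase, had 159, 140 and 154 normalized counts in flotillin libraries and 124, 103 and 107 in mCherry libraries, without overlap, and did not pass in the authors' deposited table (adjusted p 0.233). Of 7 fibroblast markers, DCN, LUM and PDGFRB rose and COL1A1 fell in that table, and THY1 was at 0 in both lines. DCN had means of 42467 in the flotillin line and 4659 in the mCherry line. Without DCN the markers with library values summed to 205 to 253 in flotillin libraries and 217 to 409 in mCherry libraries. None of 3 tested endothelial markers passed in that table or in limma, 0 also at an unadjusted p under 0.05.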
